A study of Mus musculus with 4 samples.

Results

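Nts, Nrk and Car2 are 3 mouse genes whose array signals were lower in embryonic stem (ES) cells grown on feeder cells than in the same cells grown without them. They were chosen by that difference, and every probe set (a group of short probes read as 1 value) annotated to 1 of these symbols alone was taken: 1 for Nts, 3 for Nrk and 1 for Car2, or 5 of 45037 probe sets and 3 of 18193 named genes. The question was whether dilution of ES cell RNA by feeder RNA could give the lower values. The values that chose the genes are given as a description, without a test.

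The study measured total RNA from 4 cultures of E14.1 ES cells on 1 Affymetrix array each, so that no spread between replicate cultures was measured. The groups were cells labelled Sall4-null (delta/-, line KO1) on feeders and on gelatin without feeders, and Sall4 heterozygous cells (flox/-, line HET18, here HET) on feeders and on gelatin without feeders. Each of the 4 cultures had a gene for blasticidin resistance placed at Oct3/4 (Pou5f1) by targeting and was kept in medium with serum, leukaemia inhibitory factor and blasticidin, and the feeders were blasticidin-resistant mouse embryonic fibroblasts. Each genotype was 1 line, so line and genotype cannot be told apart. Sall4 read 1452.4 on feeders and 1670.5 without them in cells labelled null, against 780.8 and 1126.5 in HET cells, on the brighter of its probe sets. The labels do not place these probe sets relative to the deletion, so genotype directions rest on the labels. No array of feeders alone was analysed here. ES cell identity was plain in the signals: Pou5f1, Sox2 and Nanog, 3 core pluripotency factors, read 977 to 2660.6 on the 4 arrays.

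Nts encodes a secreted precursor from which prohormone convertases release the peptides neurotensin and neuromedin N, known from the gut and the brain. Nrk is an X-linked kinase of the Ste20 germinal centre group, known from the mouse placenta and embryonic muscle and placed upstream of JNK signalling. Car2 is the cytosolic carbonic anhydrase that interconverts carbon dioxide and bicarbonate, and is known from kidney, bone-resorbing cells and red blood cells. Feeder cells are a source of RNA of their own in a bulk sample. Where they add RNA, a transcript that only ES cells make takes a smaller part of the total.

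The sequences before the start sites of Nts and Nrk are shown because both genes were low on the same arrays. The RefSeq promoter table (build GRCm38.p6) held 2 of the 3 genes, not Car2, and the 250 bases before the annotated start are printed 5′ to 3′. The Nts stretch is chr10:102490419-102490668 on the minus strand and the Nrk stretch is chrX:138914180-138914429 on the plus strand. Capitals mark matches on either strand to 5 motifs. TGANTCA is the AP-1 type. The cAMP response element type was searched as TGACNTCA. The TATA type was searched as TATATA and the GC box as GGGCGG. The last was the CCAAT box.
Nts: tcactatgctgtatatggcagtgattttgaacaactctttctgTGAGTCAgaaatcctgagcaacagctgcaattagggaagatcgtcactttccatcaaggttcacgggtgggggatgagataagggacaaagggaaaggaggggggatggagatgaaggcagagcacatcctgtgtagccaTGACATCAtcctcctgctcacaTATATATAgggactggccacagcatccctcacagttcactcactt
Nrk: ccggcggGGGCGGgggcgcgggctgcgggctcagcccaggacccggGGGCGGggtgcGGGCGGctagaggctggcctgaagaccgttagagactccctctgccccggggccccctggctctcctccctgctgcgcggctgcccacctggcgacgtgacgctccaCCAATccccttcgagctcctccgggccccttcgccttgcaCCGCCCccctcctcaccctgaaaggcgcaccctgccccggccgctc
The Nts stretch held TGAGTCA at 207 to 201 bases before the start, TGACATCA at 67 to 60, and overlapping TATATA matches from 45 to 38. The Nrk stretch held 4 GC boxes, the farthest at 243 bases and the nearest at 46 bases before the start, and CCAAT at 86. It had a GC content of 76.4%, against 48% for Nts and a median of 52.4% over 32851 promoters. No motif was found in both stretches. Of all promoters of this length, 6.75% held TGANTCA, 7.49% TGACNTCA, 5.25% TATATA, 32.7% GGGCGG and 33.8% CCAAT, on either strand. The motifs were chosen with the sequences in view, and a match is a run of letters and not a shown binding site.

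Nts, the neurotensin precursor gene, was lower on feeders in both genotypes. Its signal was 5.3 on feeders and 95 without feeders in cells labelled null, and 0.7 on feeders and 35.2 without feeders in HET cells. Both cultures on feeders were below both cultures without them. Log2 values carry an offset of 4.6 added to each signal, so that folds of weak signals are understated. On that scale Nts was 10.1-fold lower on feeders in cells labelled null (log2 difference -3.33) and 7.51-fold lower in HET cells (-2.91). The values on feeders lay at percentile 25.9 and 5.98 of their arrays, where signals are weak and no detection calls were used. The size of the fall therefore depends on the offset: with an offset of 1 the log2 differences were -3.93 and -4.41, and with the median signal of 17.1 as offset -2.32 and -1.55, in cells labelled null and in HET cells. In these bulk samples, fewer cells that make a transcript and less transcript per cell cannot be told apart.

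Nrk was read by 3 probe sets, and each was lower on feeders in both genotypes. The one with the highest mean read 25.2 on feeders and 165.9 without feeders in cells labelled null, and 14.9 on feeders and 78.6 without feeders in HET cells. The log2 difference was -2.52 in cells labelled null (5.72-fold lower) and -2.09 in HET cells (4.27-fold lower), and both arrays on feeders lay under both arrays without them. The second probe set to the same accession read 6.9 on feeders and 40.4 without them in cells labelled null, and 0.9 and 22.6 in HET cells, with log2 differences of -1.97 and -2.31. The remaining probe set, marked s_at because it can bind related transcripts, gave smaller differences. It read 15.8 on feeders and 36.9 without feeders in cells labelled null, and 13.7 and 27.9 in HET cells (log2 differences -1.02 and -0.83). The probe sets therefore shared the direction but not the size, and the s_at set was the only one of the 3 under 2-fold in any genotype.

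Car2 kept clear signals on every array. It read 382.7 on feeders and 1308.3 without feeders in cells labelled null, and 226.3 on feeders and 1417.4 without feeders in HET cells. The log2 difference was -1.76 in cells labelled null (3.39-fold lower) and -2.62 in HET cells (6.16-fold lower), and the signals lay at percentile 86.1 or higher on each array. Both arrays on feeders lay under both arrays without them. Here the HET pair differed more, by 0.86 on the log2 scale, whereas for Nts and Nrk the pair labelled null differed more, by 0.42 each. These differences between single pairs were not tested.

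**Figure D1:**
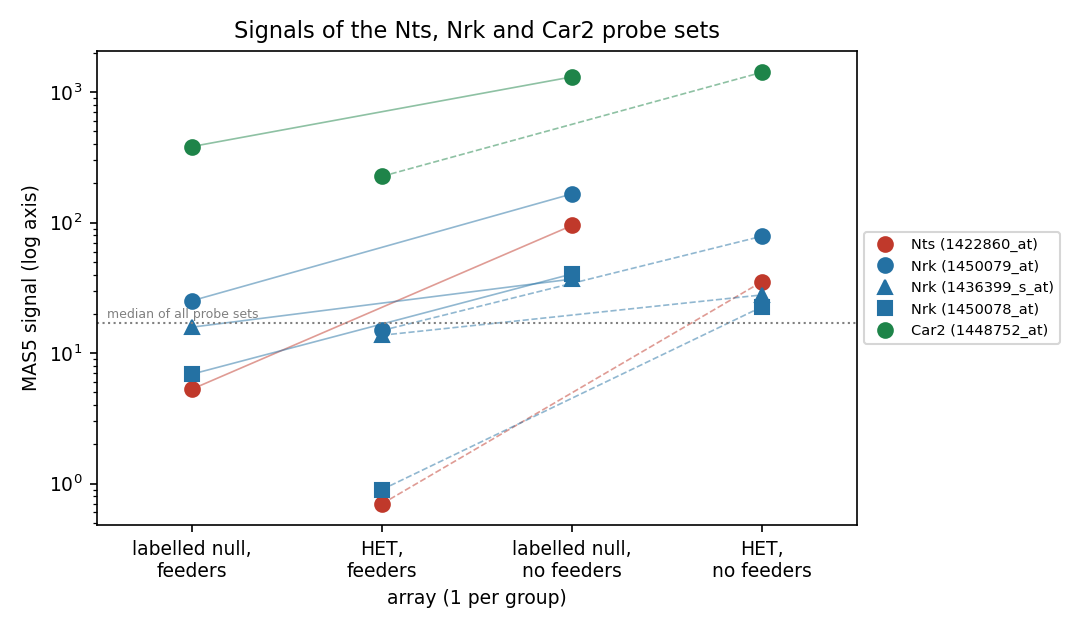
MAS5 signal (log axis) of the 5 probe sets of Nts, Nrk and Car2 on the 4 arrays, 1 array per group, with solid lines joining the arrays of cells labelled null and dashed lines those of HET cells. Each probe set is lower on feeders than without feeders in both genotypes, with Nts at 5.3 and 0.7 on feeders against 95 and 35.2 without them.

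By the rule of at least a 2-fold fall on feeders in both genotypes, and a signal above the median of 17.1 on at least 1 array per pair, 66 of 12485 genes were lower (0.529%), and the 3 genes were among them. That contrast chose the genes, so their presence there is no result. By the smaller of its 2 falls, Nts ranked 1, Nrk 4 and Car2 13 of the 12485 genes tested. This order depends on the offset for weak signals: with the median signal as offset Nts ranked 10, Nrk 9 and Car2 7, and Krt8 ranked 1. With the offset of 4.6, Krt8, a keratin of simple epithelia, Gbp2b, an interferon-inducible GTPase gene, and Ajuba, a LIM-domain protein of cell junctions, ranked 2, 3 and 5. Nnat, an imprinted proteolipid gene, Actc1, the cardiac actin gene, and Otub1, a deubiquitinase gene, ranked 6, 7 and 8. At the edge of the rule, Ttll1 and Plbd1 lay just inside with smaller falls of -1.003 and -1.01, and Chst15 and Irf2bp2 just outside with -0.98 and -0.96. In the other direction, 494 genes were at least 2-fold higher on feeders in both genotypes (3.96%).

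The dilution question was put to 36 genes chosen as markers of ES cells rather than of fibroblasts. Without an array of feeders alone, whether feeders also make some of these transcripts was not checked. Of the 36 genes, 34 had a probe set and passed the filter. Their median log2 difference on feeders was 0.24 in cells labelled null and -0.02 in HET cells, against 0.04 and 0.03 over all genes tested. Expressed as the signal on feeders in percent of that without feeders, the median gene of the list kept 118% in cells labelled null and 98.7% in HET cells. The lowest was Lin28a, an RNA-binding protein gene, which kept 54.9% in cells labelled null and 43.9% in HET cells. Of the 34 genes, 0 kept under 50% in cells labelled null and 1 in HET cells. In cells labelled null Pou5f1 kept 122%, Sox2 120% and Nanog 113%, and in HET cells they kept 86.6%, 96.0% and 119%. The highest mean difference of the list was that of Tcl1, a cofactor of the kinase Akt, at 182% in cells labelled null and 167% in HET cells. Blasticidin selection acted through the Pou5f1 locus in each culture.

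Beside these genes, Nrk kept 15.2% in cells labelled null and 19.0% in HET cells by its main probe set. Its s_at probe set kept 42.8% in cells labelled null and 49.1% in HET cells. Car2 kept 29.3% in cells labelled null and 16.0% in HET cells. Relative to the median ES gene, the log2 differences were -2.76 and -2.07 for Nrk and -2.00 and -2.60 for Car2, in cells labelled null and in HET cells. For Nts no percentage is given, because its signals on feeders, 5.3 in cells labelled null and 0.7 in HET cells, lay under the filter signal of 9.46, whereas each of the 34 ES genes lay above 17.1 on each array. Nts, Nrk and Car2 were chosen for their lower signals on feeders and the ES genes were not. A test of the distance between them would be void for that reason, so the distance is a description and was not tested. How far feeder RNA diluted the transcripts of ES cells was not measured apart from this list.

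**Figure D2:**
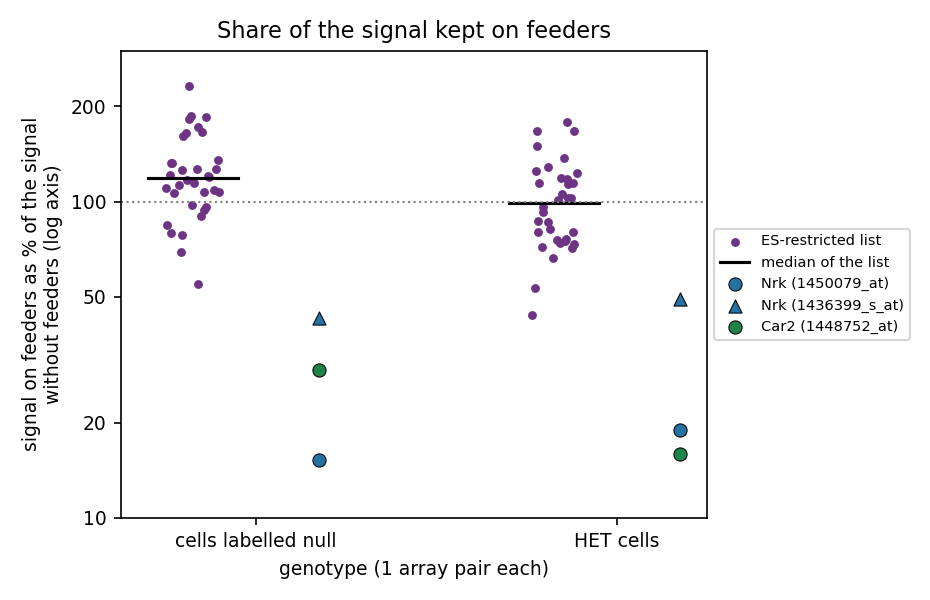
Signal on feeders as a percentage of the signal without feeders (log axis) for the 34 genes of the ES-restricted list (purple, bar at their median) and the 3 probe sets of Nrk and Car2 with signals above 9.46 on feeders, in cells labelled null and in HET cells. The ES list centres on 118% and 98.7%, and Car2, chosen for its lower signal, lies at 29.3% and 16.0%.

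Feeder RNA itself was plainly present. Counts within lists used the 2-fold rule without the condition on the median signal, by which 497 of all 12485 genes tested were higher and 70 lower. Of 38 fibroblast markers tested, 30 were at least 2-fold higher on feeders in both genotypes. Their list medians were 3.25 in cells labelled null and 4.27 in HET cells. Under 0 in cells labelled null were 3 markers: Cdh2 (-1.55, and -0.55 in HET cells), Tgfbi (-1.25, and 0.44 in HET cells) and Vim (-0.04, and 1.13 in HET cells). Postn, a matrix protein of connective tissue, read 1671.3 on feeders and 12.8 without feeders in cells labelled null, and 1135.9 and 1.4 in HET cells. The collagen crosslinking enzyme gene Lox, the proteoglycan gene Bgn and S100a4 also had log2 differences of 4.97 to 6.96. The summed signal of the 38 markers was 46047 on feeders and 14362 without feeders in cells labelled null, and 35734 and 6006 in HET cells. The summed signal of the 34 ES genes was 42526 and 38751 in cells labelled null, and 46003 and 48104 in HET cells. Thus the fibroblast sum was several times higher on feeders, whereas the ES sums on feeders and without feeders lay close together within each genotype, and 0 markers of either list were at a signal of 0 on any array.

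**Figure D3:**
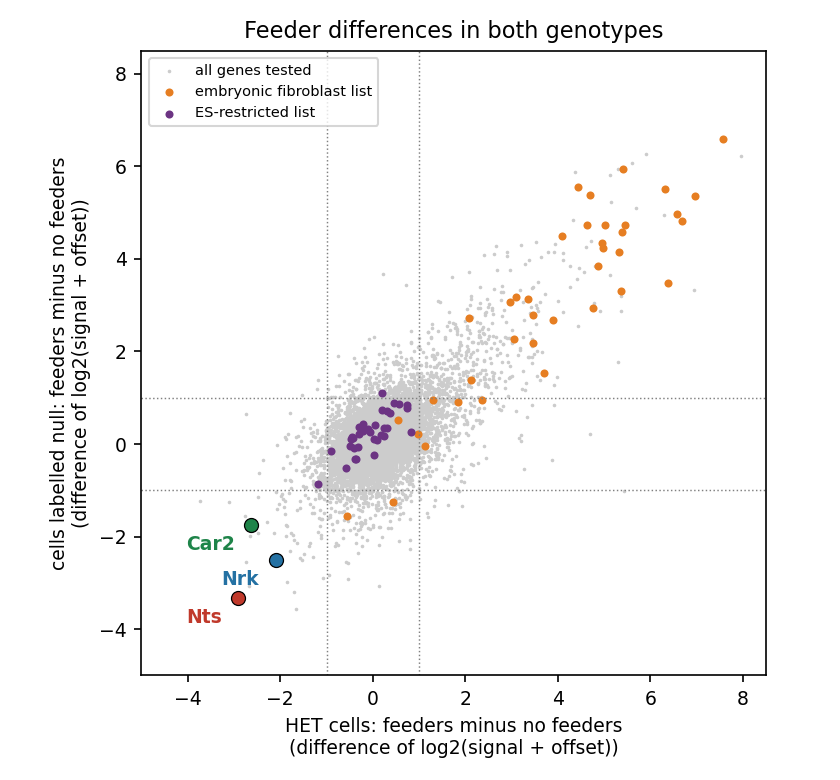
Log2 difference between feeders and no feeders in HET cells (x axis) and in cells labelled null (y axis) for the 12485 genes tested, with fibroblast markers in orange and ES genes in purple, dotted lines at a 2-fold change. Fibroblast markers lie mainly to the upper right, ES genes around 0, and Nts, Nrk and Car2 at the lower left.

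Between genotypes, a contrast that did not choose the genes, none of the 3 passed the test. In simulated data the same fit recovered 15.6% of genes changed by a log2 value of 1, so smaller differences can be missed. The additive limma model on the 4 arrays, with a genotype and a feeder term and Benjamini-Hochberg adjustment over 12485 genes, called 4 genes (0.032%). Nts was higher in cells labelled null on both backgrounds, at 5.3 against 0.7 on feeders and 95 against 35.2 without feeders. The log2 difference fitted for Nts was 1.11 (SE 0.31, adjusted p = 0.277 by limma). Nrk was higher in the same direction, with a log2 difference of 0.82 (SE 0.23, adjusted p = 0.277 by limma). Each of its 3 probe sets read higher in cells labelled null in both conditions. The second set to the same accession read only 6.9 against 0.9 on feeders, and the s_at set 15.8 against 13.7. Unadjusted p-values were 0.0129 for Nts and 0.0126 for Nrk, and 724 of all genes tested (5.8%) lay under 0.05 in that direction. Car2 read 382.7 against 226.3 on feeders and 1308.3 against 1417.4 without them, so the sign differed between conditions, and its fitted difference was 0.32 (SE 0.22, adjusted p = 0.613 by limma). With 1 residual degree of freedom per gene, each SE is moderated by a variance trend over all genes and does not measure the spread of replicate cultures. Of the 38 fibroblast markers, 36 on feeders and 34 without feeders also read higher in cells labelled null than in HET cells. On feeders all 38 markers lay above the median signal in both genotypes. Without feeders 32 lay above it in cells labelled null and 21 in HET cells, so part of the count of 34 rests on weak signals. The share of all genes that read higher in cells labelled null is not given, so neither count can be set against it. The median fitted genotype difference was 0.77 over these markers and 0.01 over all genes tested. The part of these markers in the genotype differences of Nts and Nrk was not tested.

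Among the other genes of the neurotensin system, the receptor genes Ntsr1 and Ntsr2 did not pass the filter, with signals of 1.2 to 5.7 and 2.2 to 6.2 on the 4 arrays. Sort1, which encodes the sorting receptor sortilin that also binds neurotensin, read 95.2 on feeders and 109 without feeders in cells labelled null, and 65.8 and 90.8 in HET cells. Over all 12485 genes tested, 70 were at least 2-fold lower in both genotypes and 497 higher by the rule for lists. Of 9 tested genes of peptide hormone processing, 0 were lower by that rule and 1 was higher. That gene was Cpe, which encodes the carboxypeptidase that trims prohormone fragments, at 1541.7 on feeders and 210.7 without feeders in cells labelled null, and 1510.4 and 82.8 in HET cells. Of 5 tested peptidases that break down neurotensin, 0 differed 2-fold in both genotypes. The largest mean difference was that of Mme, the gene of neprilysin, which kept 54.8% in cells labelled null and 73.6% in HET cells.

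Of 11 tested genes of the Ste20 germinal centre kinase group and the JNK pathway, Nrk was the 1 gene at least 2-fold lower on feeders in both genotypes, and the contrast had chosen it. The list medians were -0.13 in cells labelled null and 0.11 in HET cells, against 0.04 and 0.03 over all genes tested. Of the 11 genes, 7 had a difference under 0 in cells labelled null and 2 in HET cells, and the share of all genes tested under 0 was not counted. Of its closest relatives, the kinase gene Map4k4 kept 91.5% of the signal without feeders in cells labelled null and 101% in HET cells. Mink1 kept 125% in cells labelled null and 122% in HET cells, and Tnik kept 148% and 147% in the same order. Of the tested genes that encode a JNK, Mapk9 kept 149% in cells labelled null and 156% in HET cells, and Mapk8 kept 80.5% and 104% in the same order. Map2k4, a kinase that activates JNK, kept 66.8% in cells labelled null and 108% in HET cells, and the related kinase gene Map4k5 kept 78.4% and 110%. Jun, the AP-1 subunit that JNK phosphorylates, kept 66.5% in cells labelled null and 232% in HET cells.

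Of 12 tested carbonic anhydrase genes, 3 were at least 2-fold lower on feeders in both genotypes and 0 were higher: Car2, Car3 and Car4. The contrast had chosen Car2, and without it the count was 2 of 11, beside 70 of all 12485 genes tested. The list medians were 0.11 in cells labelled null and 0.08 in HET cells. Car3, a cytosolic isoform known from muscle and fat, read 66.2 on feeders and 162.7 without feeders in cells labelled null, and 7.4 and 155.8 in HET cells. Its log2 difference in HET cells, -3.74, compares with -1.24 in cells labelled null and rests on the weak signal of 7.4. Car4, a membrane-anchored isoform, read 20.7 on feeders and 49.2 without feeders in cells labelled null, and 40.8 and 172 in HET cells. Car12, a membrane isoform, went the other way, with log2 differences of 1.49 and 0.31. Of the 12 genes, 4 had a difference under 0 in cells labelled null and 6 in HET cells, and the share of all genes tested under 0 was not counted. Between genotypes, 0 of the 12 passed the limma test over all genes.

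**Figure D4:**
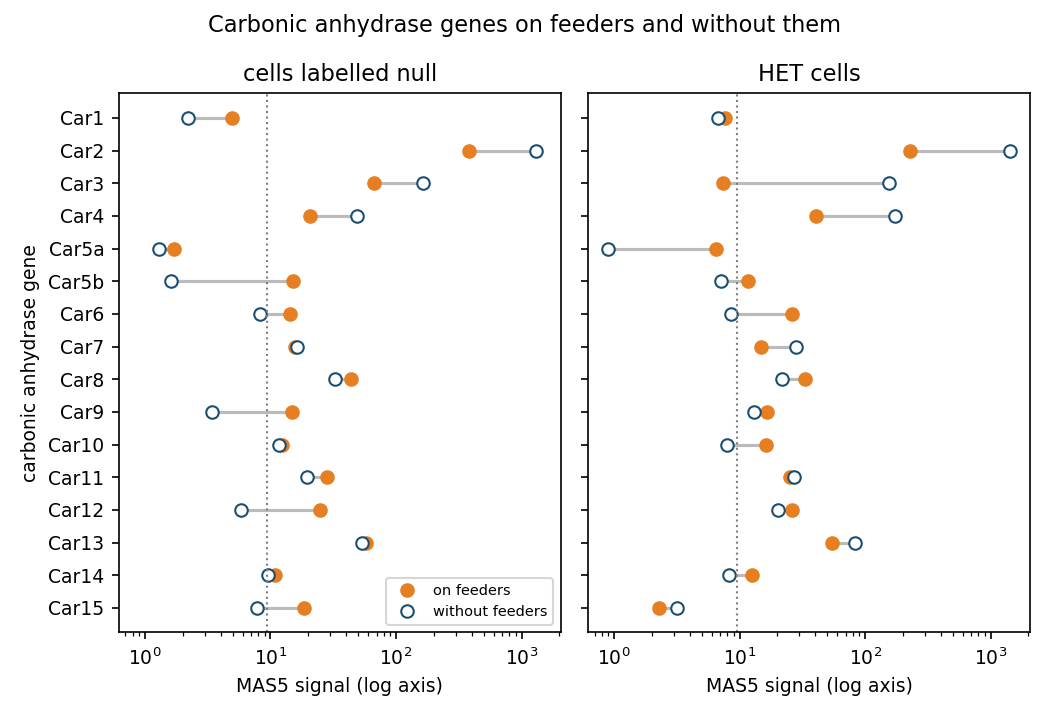
MAS5 signals (log axis) of 16 carbonic anhydrase genes on feeders (filled) and without feeders (open) in cells labelled null and in HET cells, 1 array each, with a dotted line at the filter signal of 9.46. Car2, Car3 and Car4 are lower on feeders in both genotypes, and Car12 is higher on feeders.

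Car2 and Car3 are next to each other on chromosome 3 in the RefSeq annotation, followed on the side of Car3 by Car1 and Car13. Car1 did not pass the filter, and Car13 had log2 differences of 0.10 in cells labelled null and -0.57 in HET cells, so of the genes beside Car2 that passed the filter, Car3 was at least 2-fold lower in both genotypes and Car13 was not. Next to Nts on chromosome 10, Mgat4c and Rassf9 did not pass the filter. Next to Nrk on chromosome X, Tex13a had log2 differences of 0.07 and -0.46, and Serpina7 did not pass. Among 8 tested transporters of bicarbonate and protons, 0 differed 2-fold in both genotypes in either direction. Slc4a3, an anion exchanger gene, had the largest mean difference, at 1.14 in cells labelled null and 0.25 in HET cells.

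Genes of the closest pattern were found by the root mean square distance between log2 values on the 4 arrays, each gene centred on its own mean, among genes with a mean within 4-fold. For Car2 the closest of 4720 genes was Ajuba, at a distance of 0.09, with 290 on feeders and 1172.2 without feeders in cells labelled null, and 191.1 and 1232.6 in HET cells. Polr1b, Lrp2, Otub1 and Nop16 followed at 0.25 to 0.29. For Nrk the closest of 8471 were Sema3f, a secreted guidance factor gene, at 0.17, then Gkn2, Actc1, Sema3e and Gata3 at 0.20 to 0.24. For Nts the closest of 5605 were Gbp2b at 0.42, Nrk itself at 0.43, Cdx2 at 0.44, Ifi202b at 0.48 and Nnat at 0.52. Nts and Car2 lay 0.69 apart and Nrk and Car2 0.41. With 4 arrays, these distances describe the arrays only.

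Markers of other cell types that an ES cell culture could hold were read beside the 3 genes. Trophoblast markers had median log2 differences on feeders of -0.86 in cells labelled null and -0.82 in HET cells. Of 15 tested, 6 were at least 2-fold lower in both genotypes, beside 70 of all 12485 genes tested. Neither count used the condition on the median signal, which Cdx2 did not meet, at 2.1 on feeders and 17.1 without feeders in HET cells. Of the 15 genes, 13 had a difference under 0 in cells labelled null and 10 in HET cells. The share of all genes tested under 0 was not counted, and their medians were 0.04 in cells labelled null and 0.03 in HET cells. Krt8 read 106.6 on feeders and 932.8 without feeders in cells labelled null, and 128.1 and 847.1 in HET cells, a wide gap in both genotypes. Its partner keratin gene Krt18 read 159 on feeders and 1284.2 without feeders in cells labelled null, and 295.5 and 1086.6 in HET cells. Cdx2 and Gata3, transcription factors of trophectoderm, had log2 differences of -3.19 and -1.96 in cells labelled null, and -1.70 and -1.72 in HET cells. On feeders both read under the filter signal of 9.46 in each genotype, so the sizes of their falls depend on the offset. The 5 genes with a difference above 0 in HET cells were Eomes (-0.86 in cells labelled null and 0.43 in HET cells), Wnt7b (-0.18 and 0.54), Rhox6 (-0.29 and 0.09), Rhox9 (0.16 and 0.17) and Esx1 (0.06 and 0.03). The summed signal of the 17 trophoblast markers on the array was 729.9 on feeders and 3066.4 without feeders in cells labelled null, and 1525.3 and 3177.1 in HET cells, with 0 markers at a signal of 0. Krt8 and Krt18, keratins of simple epithelia in general, gave most of the sums without feeders. The fall of the sums therefore mainly follows these keratins and does not stand for the whole list. The part of such cells in the lower signals of Nts, Nrk and Car2 was not tested.

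By the same rule for lists, 70 of all 12485 genes tested were lower on feeders and 497 higher. Endoderm markers had medians of -0.37 in cells labelled null and -0.12 in HET cells. Of 17 tested, 1 was lower and 2 were higher by at least 2-fold in both genotypes. Krt19, a keratin gene, was the lower one at -2.47 in cells labelled null and -1.58 in HET cells. Thbd (2.27 in cells labelled null and 3.45 in HET cells) and Plat (1.39 and 2.31) were the higher ones. Neuroectoderm markers had medians of -0.24 in cells labelled null and -0.30 in HET cells. Of 13 tested, 1 was lower and 0 were higher by the rule. Sox11, a transcription factor of neural progenitors, was the lower one at -1.57 in cells labelled null and -2.77 in HET cells. Ncam1 went the other way, at 0.82 in cells labelled null and 1.53 in HET cells. Primed epiblast markers had medians of -0.43 in cells labelled null and -0.93 in HET cells, with 1 of 11 lower and 0 higher. The lower one was the POU factor gene Pou3f1, at -1.26 in cells labelled null and -3.10 in HET cells. Of 4 tested markers of streak and mesoderm, 1 was lower and 0 were higher. The lower one was the VEGF receptor gene Kdr, at -1.68 in cells labelled null and -2.29 in HET cells. Its signals on feeders, 9.5 in cells labelled null and 1.5 in HET cells, were weak, so the size of its fall depends on the offset. 

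**Figure D5:**
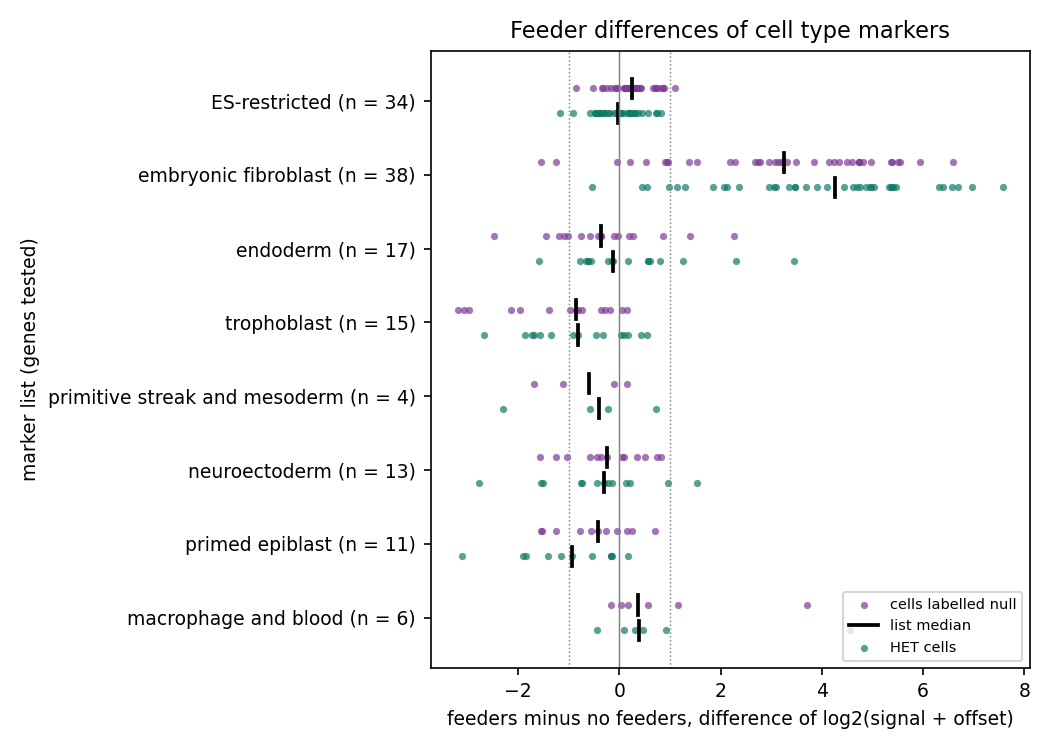
Log2 difference between feeders and no feeders for each tested gene of 8 marker lists, cells labelled null above and HET cells below in each row, black bars at the list medians, dotted lines at a 2-fold change. Fibroblast markers have medians of 3.25 and 4.27, ES genes 0.24 and -0.02, and trophoblast markers -0.86 and -0.82.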

How the data were processed

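The values were linear MAS5 signals (array intensity) as the authors deposited them, 1 array per sample, without detection calls. Per the submitters' processing notes they came from MAS5, and its version is not given in the sources used here. The 2% trimmed mean was 100 on each array, and no further scaling was applied. Control probe sets (64) were left out. Of the rest, 34945 had 1 symbol in the platform annotation, 932 had several and 9160 were not listed. Signals were transformed as log2(signal + 4.6), the 25th percentile, and a gene's probe set of highest mean stood for it. Genes with a mean under the 40th percentile (a signal of 9.46) were left out. The genotype difference came from a limma model (version 3.58.1, under R 4.3.3) with genotype and feeder terms, a variance trend in eBayes and two-sided tests. The fit was tested on simulated data with 12485 genes and 200 changed: between genotypes it recovered 15.6% at a log2 change of 1, 94.3% at 2 and 99.2% at 3, with 5, 22 and 13.6 false calls per run. Feeder differences were taken within each genotype, without a test. Precision is limited by the number of arrays.

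Of 242 genes in the 14 lists, 17 had no probe set with 1 symbol. Named genes were the members, up to 4 of each list by mean feeder difference, the 8 lowest genes on feeders and the 5 closest patterns; Car13, Mink1, Map4k4 and the chromosome neighbours were named for their relation to a member. Mapk8, Map2k4, Map4k5 and the trophoblast genes above 0 in HET cells were named after their values were seen. The same holds for the fibroblast markers under 0 in cells labelled null. The members and lists were chosen with earlier results of these data known. Offsets, normalization, probe set choice, filters and the variance trend were varied.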

Additional observations from a re-analysis of the deposited data

Results flagged for a closer look

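Jun, the AP-1 subunit that JNK phosphorylates, differed between genotypes by a log2 value of -1.08 on feeders and 0.69 without feeders, 1 array pair each, so the pairs went opposite ways and the difference was not tested. Adgre1, a macrophage marker, differed between genotypes by 0.96 on feeders and -0.64 without feeders, also untested. Its signals were weak, at 29.9 in cells labelled null and 13.1 in HET cells on feeders, and 10.9 and 19.5 without feeders. The median signal was 17.1. Jun and Adgre1 were listed because each pair differed by at least 1.5-fold in opposite directions. There were too few arrays per group to look for an array that stands apart.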

How the results depend on the processing

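Feeder differences of the 3 genes kept their direction under each of 6 alternatives. A value without a test counted as moved past 1.5-fold. For Nts the difference was -3.93 in cells labelled null and -4.41 in HET cells with an offset of 1, and -2.32 and -1.55 with an offset at the median signal. For Nrk in cells labelled null it was -1.84 with the mean of probe sets. The 66 genes at least 2-fold lower became 17 at 3-fold and 40 with either the offset at the median signal or centring on the ES-restricted list. Centring on that list set the median genotype difference of all genes to 0.41 and called 2154 genes between genotypes, 2074 higher and 80 lower, against 0 higher and 4 lower. There Nts was at 1.52 (adjusted p = 0.03), Nrk at 1.23 (adjusted p = 0.0252) and Car2 at 0.72 (adjusted p = 0.0472), by limma. Relative to the median of all genes they stayed at 1.10, 0.81 and 0.31. Over their alternatives the adjusted p ran from 0.03 to 0.432 for Nts, 0.0252 to 0.456 for Nrk and 0.0472 to 0.711 for Car2. The 4 genes called became 7 with quantile normalization or median centring, and 0 with no filter, with the filter at the 60th percentile, where Nts was not tested, or with no variance trend. No paired analysis was possible because the labels give no replicate numbers and each group had 1 array. Weak signals of Nts on feeders limit the size of its fall and its rank.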

Other observations

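Gbp2b and Gbp2, guanylate-binding protein genes known as interferon targets, were both among the 66 genes at least 2-fold lower on feeders in both genotypes. Gbp2b read 27.6 on feeders and 182.7 without feeders in cells labelled null, and 16.5 and 137.4 in HET cells. Gbp2 read 44.7 on feeders and 183 without feeders in cells labelled null, and 41.6 and 152.7 in HET cells. Of 6 tested macrophage and blood markers, 1 was at least 2-fold higher on feeders in both genotypes, beside 497 of all 12485 genes tested. That marker was Lyz2, the lysozyme gene of macrophages. It read 168.3 on feeders and 8.6 without feeders in cells labelled null, and 141.6 and 1.6 in HET cells. Gbp2 was picked with its values in view.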
